A study of Mus musculus with 8 samples.

Results

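The azurophil (primary) granule of the neutrophil carries the peroxidase myeloperoxidase and a group of serine proteases, and the 4 genes described here encode its best known enzymes. Mpo encodes myeloperoxidase, which makes hypochlorous acid from hydrogen peroxide and chloride. Elane encodes neutrophil elastase, Prtn3 encodes proteinase 3, and Ctsg encodes cathepsin G. These transcripts are made while the granule forms, in promyelocytes of the bone marrow, and are largely switched off before the cell matures, whereas the protein stays in the granule. Transcripts of secondary and tertiary granule proteins are made at later stages, and those of chemokine and formyl peptide receptors later still, so the transcripts of circulating neutrophils and of their precursors differ. In a lymph node (LN) most cells are lymphocytes and myeloid cells are a minority.

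The members were taken as the probe sets that the array annotation assigns to exactly 1 of these genes, which gave 4 probe sets, 1 per gene, of 22626 tested probe sets for 12393 genes. The genes were chosen by their difference between the genotypes after CFA+PTX, so that contrast is given below as a description, without a test. LN RNA of C57Bl/6 wild-type mice (WT) and of H3RKO mice, a line (B6.129P2-Hrh3tm1Twl) with a targeted disruption of Hrh3, the histamine H3 receptor gene, was measured on 8 Affymetrix mouse expression arrays, 1 per pool (at least 3 animals of both sexes, 8 weeks old). Each genotype gave 2 untreated arrays, 1 array 24 h after CFA, an oil emulsion with killed mycobacteria, and 1 array 24 h after CFA with PTX, the toxin of Bordetella pertussis (CFA+PTX). The titles of both CFA+PTX arrays name PTX alone, while their descriptions and the study's methods name both agents. Pools hide the spread between mice, and the treated groups have no replicate.

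Signals are log2 values after the Robust Multichip Average (RMA), so a difference of 1 is a 2-fold difference in signal. A probe set's own brightness differs from that of another, and levels are therefore compared only within a gene. LN markers were present throughout: the signal of Cd79a, a B cell receptor chain, lay between 12.51 and 12.81 and that of Cd3e, a T cell receptor chain, between 10.29 and 10.61. The probe set of Hrh3, the targeted gene, read 7.20 to 7.29 in the 4 H3RKO arrays and 6.56 to 6.66 in the 4 WT arrays. Where this probe set lies in the gene was not known here, so its signal is no check of the labels. A list of 14 salivary and lacrimal gland genes, tissue that lies beside the LN of the neck, had means of 11.47 to 12.27 in 6 arrays but 8.91 in WT untreated replicate 1 and 5.77 in the WT CFA+PTX array. Neither of those 2 arrays was the highest for any member, which the choice of the members favoured, and Ctsg was lowest in WT untreated replicate 1. Whether gland tissue plays a part in any value below was not tested.

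The promoter windows of the 4 genes are shown because the genes moved together in these arrays. Each runs from 250 bases before to 50 bases after the RefSeq gene start on GRCm38.p6, 5′ to 3′ on the strand of the gene, and all 4 genes matched an entry by symbol. Capitals mark AGGAAGT, the letters of an ETS family site of the kind that PU.1 binds. The windows lie at chr11:87793534-87793833 on the plus strand for Mpo, chr10:79886062-79886361 on the plus strand for Elane, chr10:79879417-79879716 on the plus strand for Prtn3 and chr14:56102525-56102824 on the minus strand for Ctsg.
Mpo: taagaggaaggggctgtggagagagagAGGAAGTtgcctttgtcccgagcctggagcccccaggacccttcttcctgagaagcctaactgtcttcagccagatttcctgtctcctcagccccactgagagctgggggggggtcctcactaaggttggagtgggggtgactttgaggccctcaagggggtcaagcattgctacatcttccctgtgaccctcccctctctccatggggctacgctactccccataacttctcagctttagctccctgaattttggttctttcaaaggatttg
Elane: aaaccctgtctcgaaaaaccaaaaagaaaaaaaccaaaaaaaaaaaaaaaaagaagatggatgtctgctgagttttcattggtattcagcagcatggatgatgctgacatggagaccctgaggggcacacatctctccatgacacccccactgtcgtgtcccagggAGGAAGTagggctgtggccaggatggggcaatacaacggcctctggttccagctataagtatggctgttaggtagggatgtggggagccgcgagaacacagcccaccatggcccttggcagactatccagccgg
Prtn3: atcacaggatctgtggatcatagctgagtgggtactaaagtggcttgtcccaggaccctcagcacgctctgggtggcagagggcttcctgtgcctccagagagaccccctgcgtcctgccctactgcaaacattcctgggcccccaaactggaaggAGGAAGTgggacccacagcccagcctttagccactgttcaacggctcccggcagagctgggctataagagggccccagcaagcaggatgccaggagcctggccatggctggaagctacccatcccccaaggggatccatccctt
Ctsg: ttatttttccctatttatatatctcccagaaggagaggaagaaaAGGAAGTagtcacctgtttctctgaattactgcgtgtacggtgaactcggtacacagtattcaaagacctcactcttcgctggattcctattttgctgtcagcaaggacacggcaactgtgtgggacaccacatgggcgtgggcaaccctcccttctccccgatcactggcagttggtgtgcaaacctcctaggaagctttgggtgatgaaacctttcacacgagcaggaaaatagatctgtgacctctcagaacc

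AGGAAGT stood in all 4 windows, starting 223 bases before the gene start in Mpo, 84 in Elane, 94 in Prtn3 and 206 in Ctsg, each on the strand of the gene. Of 32851 promoter windows of the same length, 9.35% held these letters on either strand, as did 0 of 14 windows of early myeloid precursor genes, 6 of 16 of secondary and tertiary granule genes and 4 of 20 of mature neutrophil genes. AACGG, letters of a Myb site, stood in 2 of the 4 windows, 50 bases before the start of Elane and 55 before that of Prtn3, and in 17.4% of all windows. TATAAG, letters of a TATA box, stood 31 bases before the start of Elane and 32 before that of Prtn3, and in 7.43% of all windows. Elane and Prtn3, which are neighbours on chromosome 10 and encode closely related proteases, thus shared 3 sets of letters in the same order. TGTGGT, letters of a Runx site, stood in the Ctsg window alone, on the opposite strand 79 bases before the start, and in 16.8% of all windows. TTGCNNAA, a form of C/EBP site, was in none of the 4 windows and in 10.8% of all. Both strands were searched, and no match in these windows overlapped another. The letters were chosen with the sequences in view and describe the windows only.

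**Figure D1:**
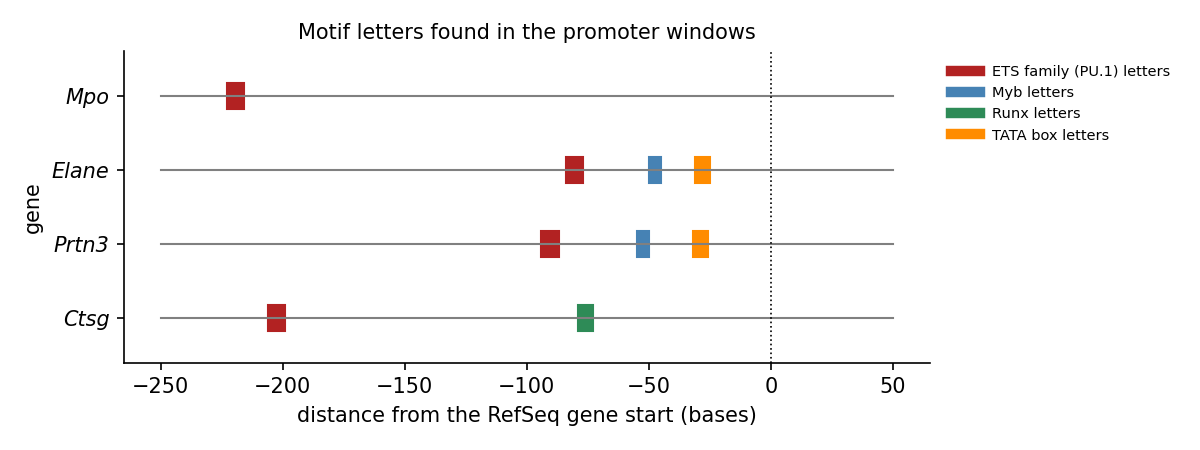
Position of the motif letters in the promoter windows of the 4 genes, with the distance from the RefSeq gene start in bases on the horizontal axis and 1 line per gene. All 4 windows hold the ETS family letters, and Elane and Prtn3 share the order of ETS, Myb and TATA box letters.

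Mpo signal was 5.59 and 5.70 in WT untreated replicates 1 and 2, 5.55 and 5.87 in H3RKO untreated replicates 1 and 2, 5.75 in WT CFA, 6.08 in H3RKO CFA, 5.89 in WT CFA+PTX and 7.82 in H3RKO CFA+PTX. The last array stood alone, 1.74 above the next highest, while the other 7 arrays spread over less than that margin and the untreated genotypes overlapped. Mpo was the gene with the largest such margin of all probe sets, in an array that entered the choice of the genes.

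Elane signal was 6.71 and 6.87 in the untreated WT arrays, 6.52 and 6.71 in the untreated H3RKO arrays, 6.59 in WT CFA, 6.91 in H3RKO CFA, 6.91 in WT CFA+PTX and 8.18 in H3RKO CFA+PTX. Again a single array was high, by 1.28 over the next. Elastase degrades elastin, other matrix proteins and bacterial proteins.

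Prtn3 signal was 6.66 and 6.85 in the untreated WT arrays, 6.24 and 6.53 in the untreated H3RKO arrays, 6.62 in WT CFA, 6.70 in H3RKO CFA, 6.98 in WT CFA+PTX and 8.24 in H3RKO CFA+PTX. In untreated LN both H3RKO arrays lay below both WT arrays, the opposite of the order after CFA+PTX. Proteinase 3 shares most substrates of elastase and processes several cytokines.

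Ctsg signal was 6.38 and 6.45 in the untreated WT arrays, 6.55 and 6.49 in the untreated H3RKO arrays, 6.51 in WT CFA, 6.73 in H3RKO CFA, 6.62 in WT CFA+PTX and 8.08 in H3RKO CFA+PTX. Both untreated H3RKO arrays lay above both WT arrays by a small step, as in 15.5% of all probe sets, and the H3RKO CFA+PTX array exceeded all others by 1.35. Cathepsin G cleaves after bulky aromatic and basic residues and is also carried by some mast cells.

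**Figure D2:**
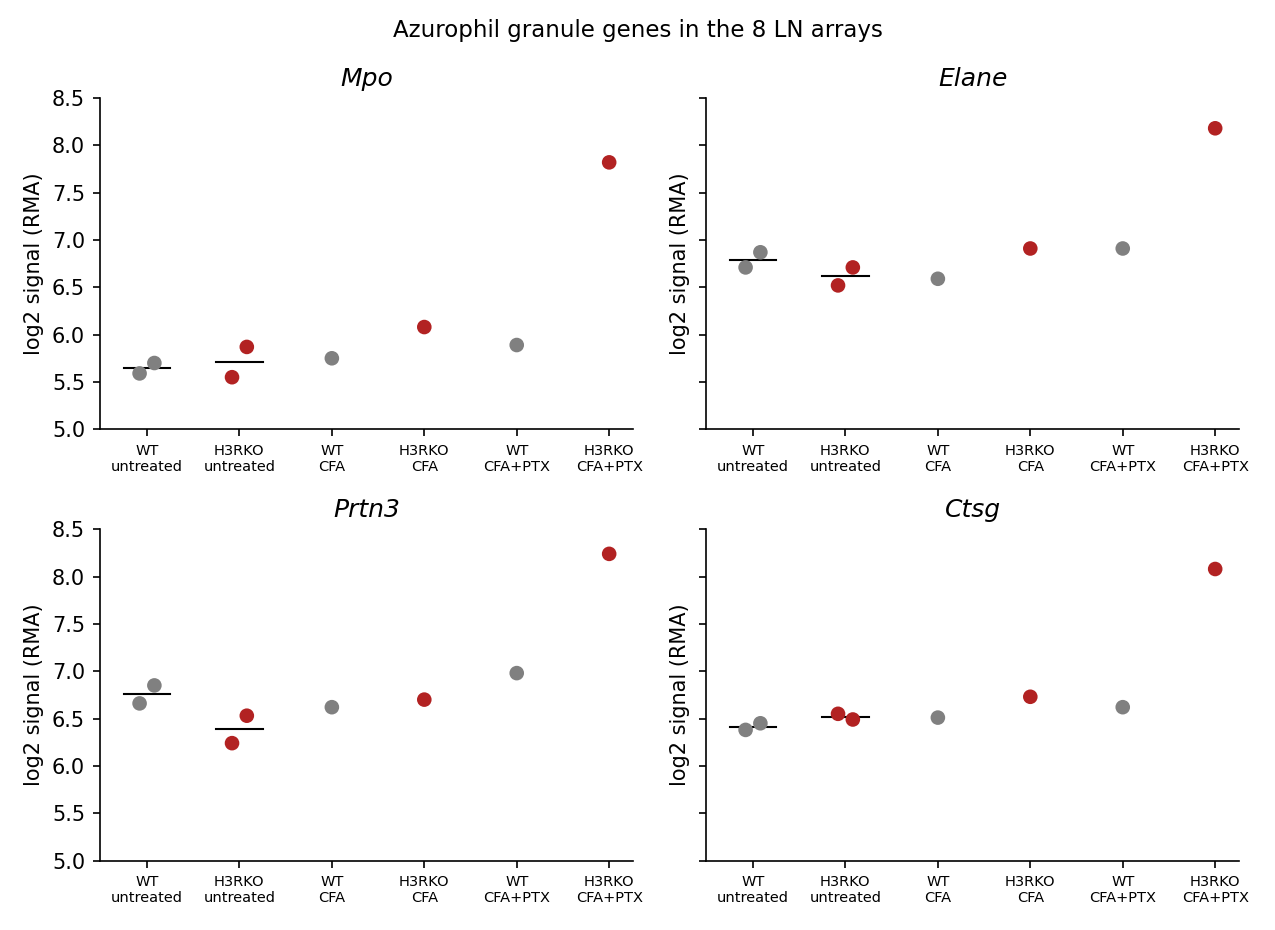
RMA log2 signal of the 4 genes in each of the 8 arrays, with WT in grey and H3RKO in red, 1 point per array and a bar at the untreated mean (2 arrays per genotype). In every panel the H3RKO CFA+PTX point sits at 7.82 to 8.24 and all others at or below 6.98.

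After CFA+PTX, the contrast by which the genes were chosen, H3RKO exceeded WT by 1.93 on the log2 scale for Mpo (3.80-fold), 1.46 for Ctsg (2.75-fold), 1.28 for Elane (2.42-fold) and 1.26 for Prtn3 (2.39-fold). The criterion of the study's methods was a fold change over 2 with an unadjusted p under 0.05. It was met there by 0.362% of all probe sets and by all 4 genes, which their choice fixed, so nothing is read from that count. With 1 array per genotype these differences have no replicate check among the arrays. For Mpo, the paper reports significantly higher expression in H3RKO LN after CFA+PTX by qRT-PCR in independent experiments. In bulk RNA, more cells of a type and more RNA per cell cannot be told apart. Within the genotypes, WT CFA+PTX exceeded the WT untreated mean by 0.25 for Mpo, 0.12 for Elane, 0.22 for Prtn3 and 0.21 for Ctsg. H3RKO CFA+PTX exceeded the H3RKO untreated mean by 2.11, 1.57, 1.85 and 1.56 in the same order. The contrast was thus set by a high H3RKO array and not by a low WT array.

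The signals of all 4 genes were in the lower part of the range in 7 arrays, where 21.8% to 37.6% of probe sets read lower, and in the middle in the H3RKO CFA+PTX array, where 48.1% to 53.8% did. No call of signal over background was used here, so how far the lower readings lie above background is not known, and log2 differences of dim probe sets can understate a change.

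The H3RKO CFA+PTX array was the highest of the 8 for 6.56% of probe sets, less often than any other array. It exceeded each of the other 7 by more than 1 for 7 probe sets (0.0309%). The 4 members, chosen by a contrast that contains this array, were among those 7, with margins of 1.26 to 1.74. Nothing is read from their place there. The other 3 of the 7 were Acot1, an acyl-CoA thioesterase (1.45), Ppbp, the platelet basic protein precursor (1.37), and Fos, an immediate early transcription factor (1.03). The same count in the other arrays ran from 0 in H3RKO untreated replicate 2 and H3RKO CFA to 5 in WT untreated replicate 2 and H3RKO untreated replicate 1. Below the margin of 1 came Fosb at 0.91, a probe set of the prostaglandin synthase Ptgs2 at 0.63 and Ms4a3, a membrane protein of granulocyte and monocyte precursors, at 0.52.

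**Figure D3:**
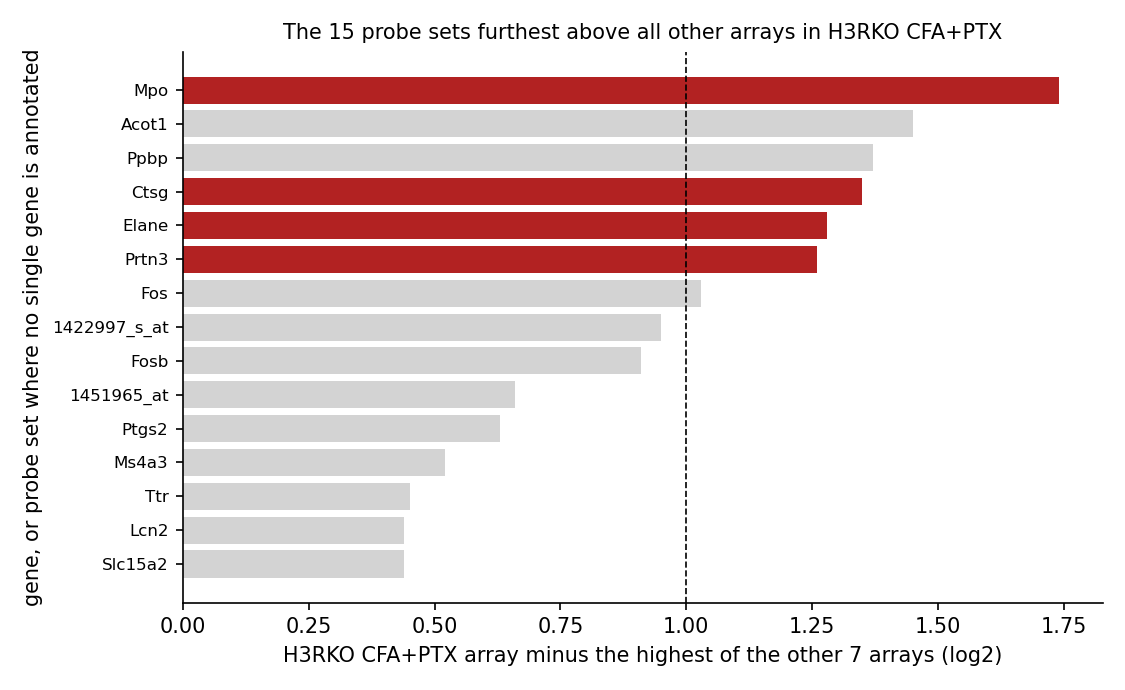
The 15 probe sets by which the H3RKO CFA+PTX array most exceeded the highest of the other 7 arrays, in log2 units, with the 4 azurophil genes in red and the dashed line at 1. The 4 genes hold ranks 1, 4, 5 and 6, between 1.26 and 1.74. This array entered their choice, so the ranks are a description only.

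In untreated LN, the comparison that asks whether the genotypes differ at baseline, none of the 4 genes met the study's criterion, which 0.15% of all probe sets did. The genotype difference, H3RKO minus WT with 2 arrays each, was 0.07 ± 0.13 (SE) for Mpo with a 95% confidence interval of -0.26 to 0.40. It was -0.17 ± 0.11 for Elane (-0.45 to 0.10) and 0.11 ± 0.09 for Ctsg (-0.11 to 0.33). Prtn3 differed by -0.37 ± 0.13 (-0.70 to -0.04), with both H3RKO arrays below both WT arrays, as in 17.9% of all probe sets. The Prtn3 difference was -0.227 without H3RKO untreated replicate 1 and -0.278 without WT untreated replicate 2. It was -0.465 without WT untreated replicate 1 and -0.516 without H3RKO untreated replicate 2. With all arrays its unadjusted p of 0.0327 became an adjusted p of 0.916, and the adjusted p of the other 3 genes was 0.936 or above (limma, Benjamini-Hochberg over 22626 probe sets). All 4 intervals ended at or below 0.40.

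After CFA alone, all 4 genes read higher in the H3RKO array than in the WT array, by 0.33 ± 0.19 for Mpo, 0.32 ± 0.16 for Elane, 0.22 ± 0.12 for Ctsg and 0.08 ± 0.19 for Prtn3. None met the criterion, which 0.225% of probe sets met, and each adjusted p was 1 (limma). The intervals reached up to 0.80 for Mpo, 0.71 for Elane, 0.54 for Prtn3 and 0.52 for Ctsg. The SE rests on the untreated pairs, since each treated group is 1 array that is assumed to vary like them.

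Over the 6 arrays without CFA+PTX, in a model of genotype and treatment, the genotype difference was 0.16 ± 0.11 for Mpo, -0.01 ± 0.12 for Elane, -0.22 ± 0.13 for Prtn3 and 0.14 ± 0.07 for Ctsg. No member passed an adjusted p under 0.05, as 0.00884% of probe sets did, and the adjusted p was 1 for all 4 (limma). The contrast that chose the genes does not compare these arrays, but the SE of that contrast rests on the untreated pairs. Earlier results of these data were also known when the genes were chosen. Over these 6 arrays the genotype differences of the group were thus of both signs.

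Whether the genotype difference itself changed with CFA was tested by an interaction term. It was 0.49 ± 0.19 for Elane (adjusted p = 0.852), 0.45 ± 0.23 for Prtn3 (0.917), 0.27 ± 0.23 for Mpo (0.979) and 0.11 ± 0.15 for Ctsg (0.998; limma). No member met the criterion, which 0.667% of probe sets met for this term. The 4 estimates were all positive, but they share the same arrays and are not independent of each other.

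The effect of CFA over both genotypes was 0.24 ± 0.36 for Mpo, 0.04 ± 0.28 for Elane, 0.09 ± 0.32 for Prtn3 and 0.15 ± 0.27 for Ctsg, with an adjusted p of 0.964 or above (limma). This additive model has no genotype by treatment term, so the genotype difference after CFA+PTX, which chose the genes, widens these SEs. No probe set of the 22626 passed this comparison at an adjusted p under 0.05 (0%), while 6.25% had an unadjusted p under 0.05. With either CFA+PTX array left out the effect of CFA was again 0.24 for Mpo and 0.15 for Ctsg. In the limma fit the unadjusted p was 0.536 for Mpo and 0.584 for Ctsg with both arrays and 0.0893 and 0.0725 without either one, and the adjusted p was then 0.936 and 0.935.

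The effect of CFA+PTX over both genotypes contains the array by which the genes stood out and is given as a description. It was 1.18 for Mpo, 1.04 for Prtn3, 0.88 for Ctsg and 0.84 for Elane. Of the 4 genes 2 passed a fold change over 2 with an unadjusted p under 0.05 (0.155% of all probe sets), 4 a fold change over 1.5 with that p (0.773%) and 0 an adjusted p under 0.05 (0%, with 12.3% of probe sets at an unadjusted p under 0.05). These counts rest on the array that chose the genes, and nothing is read from them. Without the H3RKO CFA+PTX array the same effect was 0.30 for Mpo, 0.30 for Prtn3, 0.23 for Ctsg and 0.20 for Elane. None of those passed, with adjusted p from 0.557 for Ctsg to 0.789 for Elane (limma), so a response of WT LN to CFA+PTX was not detectable with these arrays. The addition of PTX to CFA gave 0.95 for Prtn3, 0.94 for Mpo, 0.80 for Elane and 0.73 for Ctsg with that array and 0.06 to 0.21 without it. With the array 3 of the 4 passed a fold change over 1.5 with an unadjusted p under 0.05, as did 0.371% of all probe sets, and 0 passed an adjusted p under 0.05 (0%, with 5.47% at an unadjusted p under 0.05), counts that the same array carried.

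To relate the 4 genes to precursor content, 14 early myeloid precursor genes with a probe set of their own were read beside them. Their mean signal ran only from 8.84 to 8.99 over the 8 arrays and was 8.96 in H3RKO CFA+PTX, while that of the members was 6.60 in WT CFA+PTX and 8.08 in H3RKO CFA+PTX. Ms4a3 was the 1 of 14 that was highest in the H3RKO CFA+PTX array, beside 6.2% of all genes. Its signal was 5.70 and 5.66 in the untreated WT arrays, 5.43 and 5.86 in the untreated H3RKO arrays, 5.79 in WT CFA, 5.84 in H3RKO CFA, 5.97 in WT CFA+PTX and 6.49 in H3RKO CFA+PTX. It was highest in that array, by 0.52, and its untreated genotypes overlapped, as those of Mpo and Elane did.

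The stem and progenitor genes of the list did not share that pattern. Genotype differences after CFA+PTX were -0.13 for Myb, a transcription factor of progenitors, -0.20 for the stem cell factor receptor gene Kit, -0.33 for Cd34, -0.04 for the cytokine receptor gene Flt3 and 0.06 for Gfi1, a repressor needed for neutrophil development. Cebpa, which drives granulocyte commitment, read 11.33 and 11.18 in untreated WT, 10.93 and 10.92 in untreated H3RKO and 11.16 and 10.87 in WT and H3RKO CFA+PTX. Several of these genes are also expressed by lymphocytes, mast cells, endothelium or fat, so their level in a LN is not that of myeloid precursors alone. The list's median genotype difference was -0.02 in untreated LN, 0.01 after CFA and -0.10 after CFA+PTX, against -0.02, 0.04 and -0.03 over all genes. None of the 14 met the criterion in untreated LN or after CFA. Runx1, a regulator of blood cell development, met it in the interaction with CFA (-1.01, adjusted p = 0.849, limma).

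Some genes of secondary and tertiary granules, the next stages of granule formation, were also highest in the H3RKO CFA+PTX array but, unlike the 4 genes, stood high in untreated H3RKO LN as well. Of 16 measured, 6 were highest in that array, beside 6.2% of all genes, namely Ltf, Ngp, Lcn2, Cd177, S100a8 and S100a9. Of these, S100a8 and S100a9 encode calprotectin, a protein of the cytosol and not of these granules. Ngp, neutrophilic granule protein, read 8.38 and 8.34 in untreated WT, 9.45 and 9.0 in untreated H3RKO, 8.78 and 9.0 in WT and H3RKO CFA, and 8.36 and 9.85 in WT and H3RKO CFA+PTX. Its untreated H3RKO arrays lay well above its untreated WT arrays, a step that no azurophil gene showed.

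S100a9, a subunit of calprotectin, read 8.85 and 9.17 in untreated WT, 10.79 and 10.68 in untreated H3RKO, 9.48 and 9.83 in WT and H3RKO CFA, and 9.03 and 10.83 in WT and H3RKO CFA+PTX. The untreated H3RKO arrays and the H3RKO CFA+PTX array were thus about equally high. The calprotectin genes are abundant in cytosol of later stages as well as in monocytes. Ltf, lactoferrin, read 6.87 and 7.23 in untreated WT, 7.80 and 7.49 in untreated H3RKO, 7.20 and 7.48 in WT and H3RKO CFA, and 7.03 and 8.21 in WT and H3RKO CFA+PTX.

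In untreated LN both H3RKO arrays lay above both WT arrays for 12 of these 16 genes, against 12.5% of all genes, and for 1 of the 4 azurophil genes. The list was drawn up with earlier results of these data known, so the counts in this paragraph are a description only. Chil3 (1.84 ± 0.23), S100a9 (1.72 ± 0.13) and S100a8 (1.53 ± 0.13) met the study's criterion there, with adjusted p of 0.425, 0.0924 and 0.0924 (limma). After CFA+PTX, with 1 array per genotype, 6 of the 16 met the criterion with higher signal in H3RKO, against 0.362% of all probe sets in either direction. They were S100a9 (3.48-fold), Chil3 (2.89-fold), S100a8 (2.80-fold), Ngp (2.79-fold), Ltf (2.27-fold) and Cd177 (2.26-fold), with adjusted p of 0.215 or above (limma), and Hp met it with lower signal (2.44-fold). The list's median difference was 0.59 in untreated LN, 0.09 after CFA and 0.46 after CFA+PTX. That of the 4 genes was -0.05, 0.27 and 1.37, the last fixed by their choice. Chil3, S100a8, S100a9 and the collagenase gene Mmp8 met the criterion in the interaction with CFA, at -2.23, -1.36, -1.38 and -1.03 (adjusted p = 0.849 each, limma), a sign opposite to that of the 4 azurophil estimates. Hp, haptoglobin, also a product of fat and liver, went the other way, at -1.29 after CFA+PTX.

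Of the mature neutrophil genes, 3 met the criterion in untreated LN, all higher in H3RKO, against 0.15% of all probe sets in either direction. Clec4d, a C-type lectin receptor gene, read 5.61 and 5.67 in untreated WT, 6.98 and 6.72 in untreated H3RKO, 5.56 and 5.66 in WT and H3RKO CFA, and 5.42 and 5.59 in WT and H3RKO CFA+PTX. Fpr2, a formyl peptide receptor gene, read 7.06 and 7.13 in untreated WT, 8.11 and 8.18 in untreated H3RKO, 7.83 and 7.89 after CFA and 7.37 and 7.48 after CFA+PTX in the same order. Both genes were highest in the untreated H3RKO arrays. The azurophil genes were highest in the H3RKO CFA+PTX array, which their choice favoured, so that contrast is a description only.

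Csf3r, the receptor gene for granulocyte colony-stimulating factor, read 8.97 and 8.86 in untreated WT, 9.43 and 9.27 in untreated H3RKO, and 9.07 and 8.75 in WT and H3RKO CFA+PTX. Its genotype difference turned from 0.44 in untreated LN to -0.32 after CFA+PTX. Cxcr2, the chemokine receptor gene of circulating neutrophils, differed by 0.00 in untreated LN and by 0.02 after CFA+PTX. Of 18 measured genes, 10 had both untreated H3RKO arrays above both WT arrays, against 12.5% of all genes. The list was drawn up with earlier results of these data known, so this count is a description only. In H3RKO CFA+PTX 1 of the 18 (Cxcr2) was highest, near the share of 6.2% of all genes. Clec4d (1.21 ± 0.11), Fpr2 (1.05 ± 0.09) and Slfn4 (2.06 ± 0.40) met the criterion in untreated LN, with adjusted p of 0.148, 0.0924 and 0.916 (limma), and none of the 18 met it after CFA or CFA+PTX. Clec4d and Slfn4 also met it in the interaction with CFA, at -1.11 and -1.98 (adjusted p = 0.849 each).

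The list's median genotype difference was 0.27 in untreated LN, 0.10 after CFA and 0.06 after CFA+PTX. In untreated LN a list of 7 interferon-induced genes was also higher in H3RKO for all 7, with a median of 0.76. The median of the 11 monocyte and macrophage genes there was -0.04. Which cells carry the untreated differences of the mature neutrophil list was not tested. In untreated LN the medians of the mature neutrophil genes and of the secondary and tertiary granule genes were above that of the 4 azurophil genes. After CFA+PTX both were below it, where the choice of the 4 genes fixed their place.

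**Figure D4:**
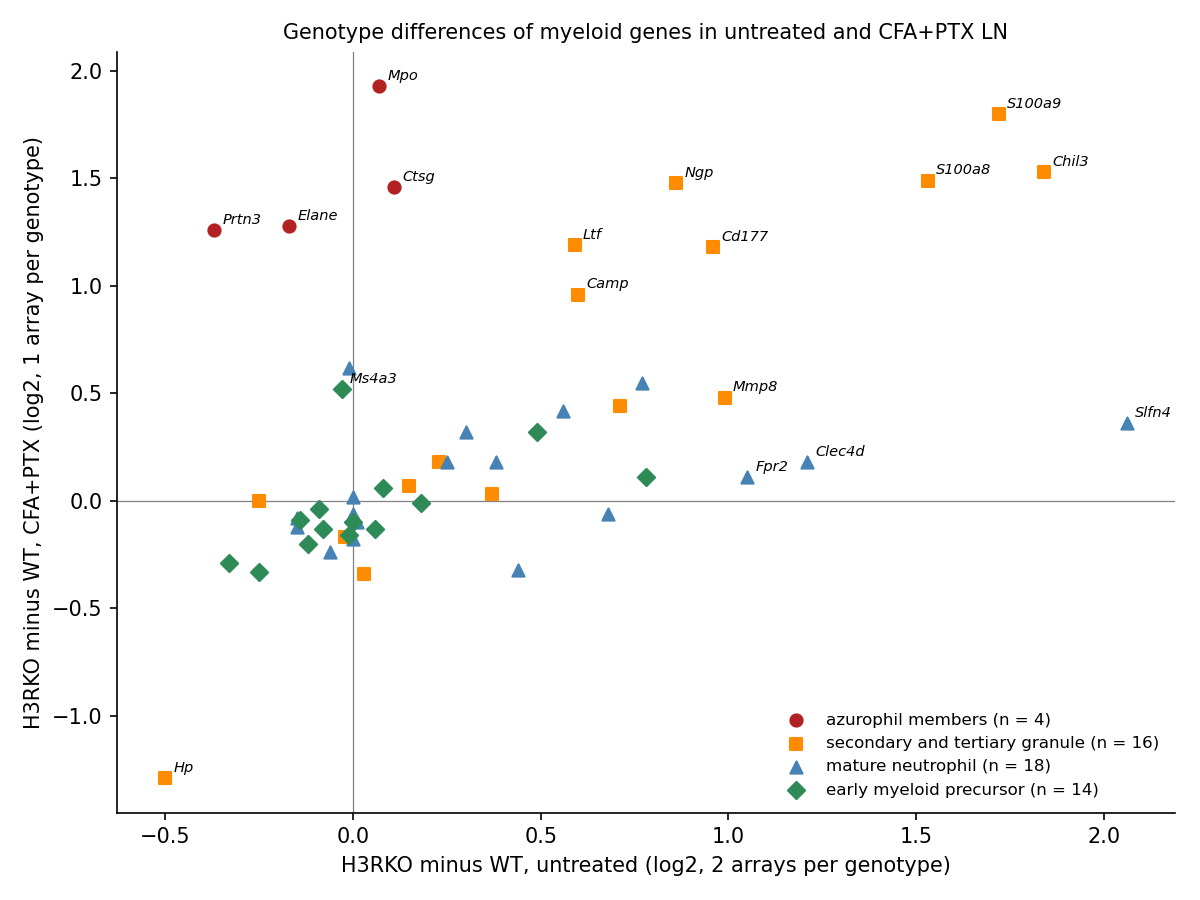
Genotype difference, H3RKO minus WT in log2 units, in untreated LN on the horizontal axis (2 arrays per genotype) and after CFA+PTX on the vertical axis (1 array per genotype), 1 point per gene of 4 lists. The 4 azurophil genes lie between -0.37 and 0.11 on the horizontal axis and above 1.2 on the vertical axis, while S100a8, S100a9, Chil3 and Ngp lie high on both and Clec4d, Fpr2 and Slfn4 on the horizontal axis alone.

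Other contents of the azurophil granule, the enzymes that activate or supply its proteases and peroxidase, and their inhibitors were read next. No measured gene of these lists was highest in H3RKO CFA+PTX, as 6.2% of all genes were. In lists this short a count of none is near that share, and nothing is read from it. Of 8 measured genes of other primary granule contents, none was highest in H3RKO CFA+PTX, and their median difference there was -0.04. Prss57, Bpi, Cd63 and Arsb of that list had no probe set assigned to them alone, so the 8 do not stand for the whole granule. Lysozyme (Lyz2), which macrophages also make, lay between 13.95 and 14.01 in all arrays, and serglycin (Srgn), the proteoglycan that packs the granule, between 13.09 and 13.24. Both probe sets are very bright, Lyz2 close to the highest deposited value, so that a change could go unseen in them. Gusb, the lysosomal enzyme beta-glucuronidase, read less brightly, from 10.34 to 10.47.

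Ctsc, whose product dipeptidyl peptidase 1 activates all 3 proteases, lay between 12.61 and 12.89, at 12.87 in WT and 12.79 in H3RKO CFA+PTX. Cybb, the catalytic subunit of the oxidase that supplies the peroxidase with its substrate, differed by 0.26 ± 0.08 in untreated LN (adjusted p = 0.916, limma) and by -0.26 after CFA+PTX. The 6 measured genes of activation and oxidant supply had medians of 0.06, -0.07 and -0.02 in untreated, CFA and CFA+PTX LN, and none met the criterion in untreated or CFA LN.

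Among 9 measured inhibitor genes the median difference was -0.10 in untreated LN, -0.11 after CFA and -0.15 after CFA+PTX, with none highest in H3RKO CFA+PTX. Slpi, the secretory inhibitor of elastase and cathepsin G, read 11.40 and 11.64 in untreated WT, 11.21 and 11.18 in untreated H3RKO, 11.74 and 11.23 in WT and H3RKO CFA, and 10.36 and 11.62 in WT and H3RKO CFA+PTX. Here the WT CFA+PTX array was the low one, as for the gland genes, while the H3RKO CFA+PTX array was within the range of the rest. Serpinb1a, an intracellular inhibitor of the same proteases, differed by 0.24 after CFA+PTX and by -0.09 in untreated LN.

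Relatives of the 4 genes by sequence or by place in the genome also took other courses. Lpo, lactoperoxidase, is the next annotated gene to Mpo on chromosome 11 and is made by glands. It read 6.75 and 10.55 in untreated WT, 9.61 and 10.93 in untreated H3RKO, 9.67 and 9.71 after CFA, and 5.78 and 10.59 after CFA+PTX, with low signal in the same 2 WT arrays as the gland list. Epx, eosinophil peroxidase, lay 3 genes from Mpo and between 4.88 and 5.22 in all arrays.

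Ctsg lies on chromosome 14 between Mcpt8, a basophil protease gene, and Gzme, a granzyme gene. Mcpt8 differed by 0.21 and Gzme by -0.16 after CFA+PTX, and the mast cell protease gene Mcpt4 by 0.02. Around the adjacent Prtn3 and Elane on chromosome 10, the nearest flanking genes, Plppr3 and Cfd, were not analysed here, for want of a probe set assigned to them alone. The paper reports Cfd as lower in H3RKO LN, both untreated and after CFA+PTX. Of the genes beyond Plppr3 and Cfd, Ptbp1 differed by -0.02, Misp by 0.22 and Med16 by -0.11 after CFA+PTX. Of 16 measured serine protease genes of other granules (mast cells, basophils, cytotoxic lymphocytes), 1, Mcpt8, was highest in H3RKO CFA+PTX. That is near the share of 6.2% of all genes. Gzmb, granzyme B of cytotoxic lymphocytes, ran from 8.44 in WT to 7.78 in H3RKO CFA+PTX.

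Lists of other cell types that could carry or accompany precursors gave the following. The 10 erythroid genes had means of 5.86 to 6.05 in all 8 arrays, with 5.94 in H3RKO CFA+PTX. The 11 monocyte and macrophage genes were at 10.30 to 10.67, with a median genotype difference of -0.22 after CFA+PTX. None of them was highest in the H3RKO CFA+PTX array, beside 6.2% of all genes. The 7 mast cell and basophil genes were at 7.33 to 7.69 with a median of -0.14, and the 15 cell cycle genes at 8.55 to 9.16 with a median of -0.03.

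The mean of the 8 platelet and megakaryocyte genes was 7.36 in H3RKO CFA+PTX against 6.83 to 7.08 elsewhere. Of the 8, only 2, Ppbp and Gp1bb, were highest in that array, beside 6.2% of all genes. The median genotype difference of the 8 genes after CFA+PTX was 0.10, with 5 genes higher and 3 lower in H3RKO. Ppbp was the 1 gene of the 8 that exceeded each other array by more than 1, and it read 4.65 and 4.63 in untreated WT, 5.11 and 5.34 in untreated H3RKO, 4.90 and 6.40 in WT and H3RKO CFA, and 5.45 and 7.76 in WT and H3RKO CFA+PTX. Its second highest array was H3RKO CFA, which was also the second highest for Mpo (6.08) and Ctsg (6.73). Pf4, platelet factor 4, read 8.25 in WT and 8.62 in H3RKO CFA+PTX, below its highest untreated reading of 8.78. The part of platelet RNA in the azurophil values was not tested.

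**Figure D5:**
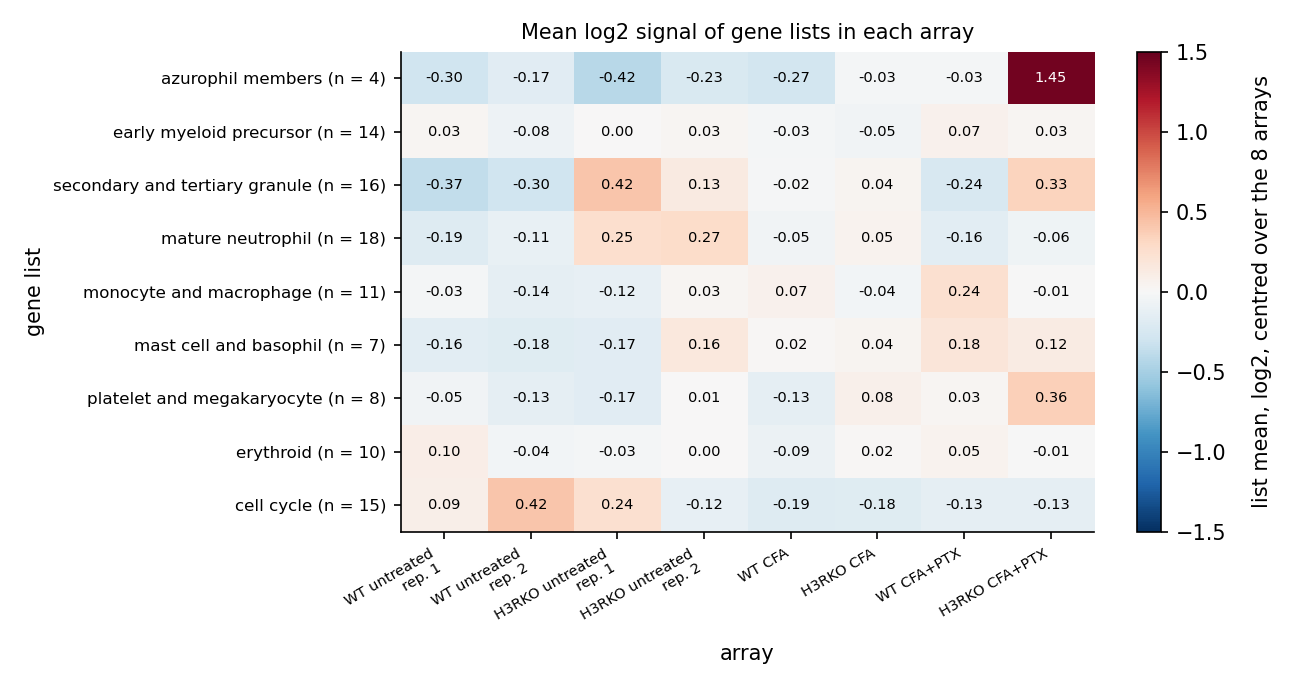
Mean log2 signal of 9 gene lists in each array after each list was centred on its own mean over the 8 arrays, with red above and blue below that mean. The azurophil genes are high in the H3RKO CFA+PTX array alone (1.45), the secondary granule genes in the untreated H3RKO arrays (0.42 and 0.13) as well as there (0.33), and the mature neutrophil genes in the untreated H3RKO arrays (0.25 and 0.27).

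The 4 genes followed each other closely over the 8 arrays. The Pearson correlation of each with the mean of the other 3 was 0.95 for Prtn3, 0.97 for Ctsg, 0.98 for Mpo and 0.99 for Elane. Over the 7 arrays without H3RKO CFA+PTX it was 0.58, 0.45, 0.71 and 0.86, so much of the likeness rested on that array. The points share arrays and normalization, and no p is given.

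The 10 other genes most like the mean of the members over the 8 arrays were Acot1 (r = 0.97), Kcna4 (0.95), Erlec1 (0.94), Fos (0.93), Fosb (0.93), Nthl1, Ms4a3 and Foxo3 (0.92 each), and Mfn1 and Sgk2 (0.91 each). Several moved very little: Erlec1 ran from 9.58 to 9.79 and Mfn1 from 8.20 to 8.35. Without H3RKO CFA+PTX the correlation stayed at 0.90 for Erlec1, 0.87 for Nthl1 and 0.79 for Ms4a3 and was 0.56 for Acot1, 0.35 for Fos and 0.19 for Kcna4. Ms4a3 was the 1 gene of the 10 that is on a myeloid list.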

How the data were processed

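The authors hybridized LN RNA of 8 pools to single-colour arrays and processed the scans by RMA (background correction, normalization and summary over the probes of a set) in Partek Genomic Suites, which gave the deposited log2 values (2.42 to 14.4, median 7.97). No step before these values was repeated. After 64 control probe sets were set aside, 22626 remained, of which 20380 have 1 annotated gene, 691 several and 1555 none. A gene is represented by its brightest probe set, by the mean over the arrays.

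Genotype differences within a treatment and their interaction with CFA came from a model with a mean for each of 6 groups (limma 3.58.1, R 4.3.3; 2 residual and 3.58 prior degrees of freedom), called at an unadjusted p under 0.05 with a fold change over 2 as in the study's methods. Treatment effects (4 residual and 3.28 prior degrees of freedom) and the genotype difference over 6 arrays (3 and 3.31) came from additive models, called at an adjusted p under 0.05 (Benjamini-Hochberg over all probe sets). The models were tested on simulated data. Nothing says more of the untreated arrays than that they are separate pools, so p-values of the model with 6 group means measure the spread between untreated pools. In the additive models the residual spread also holds any change of the genotype difference with treatment, which unreplicated treated arrays cannot separate from pool spread. The members and all gene lists were chosen with earlier results of these data known, and promoter sequences and gene order are from RefSeq.

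Named genes are the 4 members, up to 6 genes of each list in list order, list genes that pass in a tested comparison, the 10 genes most like the members, Hrh3 and the neighbours of the members. Genes named beyond this, such as those with a high H3RKO CFA+PTX array, Cd177, Ngp, Clec4d and Cybb among them, were chosen after their values were seen. The alternatives were quantile normalization or median centring of the values, robust fitting with a trend, no moderation, a filter at the 25th percentile of means, no probe sets with cross-hybridizing suffixes, other thresholds, a replicate block, each array left out, the untreated arrays alone and the mean of all probe sets of a gene. The plots come from Python 3.11.15 with matplotlib 3.10.9.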

Additional observations from a re-analysis of the deposited data

Results flagged for a closer look

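Prtn3 had opposite genotype differences in untreated LN and after CFA. In untreated LN it was -0.37 on the log2 scale, with both H3RKO arrays below both WT arrays, and after CFA it was 0.08, with the single H3RKO array above the single WT array. The interaction term was 0.45 with an adjusted p of 0.917 (limma), so the change of direction did not pass the test. No group has enough arrays for a check of single arrays that stand apart.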

How the results depend on the processing

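In no tested genotype comparison did an alternative call a member. The effect of CFA+PTX, with 0 members called, had 4 at a fold change over 1.5 with an unadjusted p under 0.05, 2 at a fold change over 2 with that p, and 0 to 1 with 1 array left out each. The 1 was Ctsg without the WT CFA+PTX array (1.54, adjusted p = 0.0471), where the effect rests on the H3RKO array alone. The effect of PTX added to CFA had 3 members at a fold change over 1.5 with that p and 0 otherwise. Directions turned in 7 values, all with 1 array left out and none past a threshold. The Elane difference over 6 arrays ran from -0.174 to 0.0912, and was 0.0833 without WT untreated replicate 2 and 0.0912 without H3RKO untreated replicate 1. The effect of CFA ran from -0.0959 to 0.169 for Elane (-0.0959 and -0.0202 without H3RKO untreated replicates 1 and 2), from -0.0697 (without H3RKO untreated replicate 1) to 0.233 for Prtn3, and from -0.019 (without the WT CFA array) to 0.323 for Ctsg. The untreated Mpo difference ran from -0.0969 (without H3RKO untreated replicate 2) to 0.23. The cause was not tested.

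The untreated arrays share replicate numbers, but the replicate 1 minus replicate 2 differences of the genotypes correlated at 0.123 over 22626 probe sets, with only 2 pairs, and nothing ties them. With the replicate block 0 members were called in all 7 tested comparisons. Quantile normalization or median centring, added after the data were seen for the CFA+PTX genotype difference, gave 1.94 and 1.96 for Mpo against 1.93. The number of arrays limits all values, and 1 array carries the high azurophil signals after CFA+PTX. In untreated LN, without that array, the genotype difference of the members minus that of the mature neutrophil genes was -0.5. It ran from -0.584 to -0.416 with 1 untreated array left out.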
